A study of Mus musculus with 9 samples.

Results

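Chemokine ligands are small secreted proteins that lymphocytes use to call other immune cells to a site, and 9 of their genes were followed here in innate lymphocytes sorted from the epithelium of the mouse small bowel. The genes were Xcl1, Ccl3, Ccl4, Ccl5, Cxcl10, Cxcl16, Ccl25, Ccl22 and Ccl1. They were chosen by symbol among 19938 genes with a row of their own on the array. All 9 had such a row and were tested, since no filter on dim rows was applied in the fit reported here (such a filter, tried as an alternative, removed Ccl1, Ccl22 and Cxcl16). For Ccl25, which had 2 rows, the row that was brighter on average was used. RNA came from small intestinal cells of NOD-SCID mice, 8 to 10 weeks old, a strain that lacks mature T and B cells. CD45+ cells without surface CD3 were sorted into 3 populations with 3 arrays each, numbered by the submitters as biological replicates. Ly49E+CD8aa+ cells carried the Ly49 family receptor Ly49E and the CD8 alpha homodimer, Ly49E+CD8aa- cells carried Ly49E alone, and Ly49E-CD8aa+ cells carried the CD8 alpha homodimer alone. No group was treated, and all shared the strain, the tissue and the sort for CD45 without CD3. How many mice each array stands for is not stated in the labels, so arrays are the unit of every test. The p-values set differences between population means against the spread of arrays within populations.

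As background, chemokines act through G-protein-coupled receptors and are grouped by the spacing of their first cysteines. Xcl1 (lymphotactin) binds Xcr1 on cross-presenting dendritic cells and is made by NK cells and CD8 T cells. Ccl3, Ccl4 and Ccl5 are inflammatory CC chemokines that draw T cells, NK cells and monocytes. Cxcl10 is an interferon-induced ligand of Cxcr3, and Cxcl16 is a membrane-bound ligand of Cxcr6 that proteases can release. Ccl25 is the epithelial chemokine of the small intestine and draws Ccr9+ lymphocytes. Ccl22 and Ccl1 are ligands of Ccr4 and Ccr8.

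Values are log2 expression from RMA, so a difference of 1 is a 2-fold difference, and array medians over all rows ran from 5.76 to 5.82. The brightness of a row depends on its probes, so levels were compared between populations within a gene and never between genes. Transcripts of both sort markers differed in the direction of the gates. Klra5, which encodes Ly49E and is open to cross-hybridisation with its family, had means of 11.40 and 11.43 in the Ly49E+ populations and 6.59 in Ly49E-CD8aa+, and Cd8a had means of 12.55 and 12.58 in the CD8aa+ populations and 11.42 in Ly49E+CD8aa-. All 12 markers of innate lymphocytes lay above the array medians. So did 11 of 12 enterocyte markers. Their summed level ran from 12.92 to 13.43 in Ly49E+CD8aa+, from 12.70 to 13.39 in Ly49E+CD8aa- and from 12.61 to 13.47 in Ly49E-CD8aa+ (log2 of the sum). Also above the medians were 7 of 12 dendritic, 5 of 8 secretory epithelium and 4 of 8 stroma and endothelium markers. Below them lay 10 of 12 macrophage, 7 of 8 granulocyte, 6 of 7 mast cell and 6 of 7 B and plasma cell markers.

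For Ccl22 and Cxcl16 every array lay below the array medians, so these rows alone do not show that the cells made the transcript. For Ccl1 the arrays lay on both sides of the medians. No detection calls were used, so a low value is not evidence that a transcript was missing.

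RefSeq promoter entries were found for 6 of the 9 genes, with 7 windows in all. The 250 bases before the annotated start are shown for the genes with an entry whose arrays did not overlap between Ly49E+CD8aa- and Ly49E-CD8aa+. These were Xcl1, Cxcl10 and Ccl1, higher in the former, and Ccl3, lower in it. The choice was made on the values, and only Xcl1 passed the limma test of that difference. Sequences are from GRCm38.p6, 5′ to 3′ on the strand of the gene. Capitals mark matches, on either strand, to an NF-kB spelling (GGGA, any base, TT, any base, CC) and its variant (GGGA, any 2 bases, TTCC), to the interferon response spelling (GAAA, any 2 bases, GAAA) and to ATAAA of the TATA type.
Xcl1 (chr1:164935523-164935772, minus strand): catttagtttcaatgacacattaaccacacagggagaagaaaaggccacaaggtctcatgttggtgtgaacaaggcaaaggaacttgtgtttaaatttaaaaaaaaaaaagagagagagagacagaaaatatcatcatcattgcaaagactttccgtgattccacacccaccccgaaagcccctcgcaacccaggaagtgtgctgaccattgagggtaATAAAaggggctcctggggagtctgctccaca
Cxcl10 (chr5:92348890-92349139, minus strand): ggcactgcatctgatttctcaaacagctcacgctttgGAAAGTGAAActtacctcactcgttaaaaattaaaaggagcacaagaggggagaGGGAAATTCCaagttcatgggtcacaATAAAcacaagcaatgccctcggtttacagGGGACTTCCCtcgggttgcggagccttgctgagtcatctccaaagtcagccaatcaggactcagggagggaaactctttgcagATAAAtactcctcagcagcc
Ccl1 (chr11:82179813-82180062, minus strand): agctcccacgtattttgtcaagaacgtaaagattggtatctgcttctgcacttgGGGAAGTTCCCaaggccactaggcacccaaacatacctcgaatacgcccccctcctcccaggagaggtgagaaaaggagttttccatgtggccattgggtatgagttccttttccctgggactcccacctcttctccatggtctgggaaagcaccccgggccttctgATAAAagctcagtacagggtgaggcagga
Ccl3 (chr11:83649379-83649628, minus strand): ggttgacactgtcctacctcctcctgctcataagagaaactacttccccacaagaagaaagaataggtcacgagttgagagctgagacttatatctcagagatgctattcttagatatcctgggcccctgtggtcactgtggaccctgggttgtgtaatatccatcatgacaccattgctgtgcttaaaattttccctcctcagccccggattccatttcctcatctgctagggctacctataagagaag
The Cxcl10 window held 1 match to each of the NF-kB spellings, GGGAAATTCC at 159 to 150 bases before the start and GGGACTTCCC at 103 to 94 bases, and 1 interferon response match, GAAAGTGAAA at 213 to 204 bases. The Ccl1 window held GGGAAGTTCC at 196 to 187 bases, which overlaps the match GGAAGTTCCC read from the other strand. The Xcl1 and Ccl3 windows held none of these 3 spellings, nor did those of Ccl25 and Ccl22, which are not shown. ATAAA stood at 32 to 28 bases in Xcl1, at 29 to 25 in Ccl1 and at 133 to 129 and 20 to 16 in Cxcl10. The Ccl3 window did not hold it, and a Ccl25 window did. Over 32851 windows of the same length, 1.83% held an NF-kB spelling, 2.98% the interferon response spelling and 37.3% ATAAA. These are matches of letters and do not show that a factor binds.

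**Figure D1:**
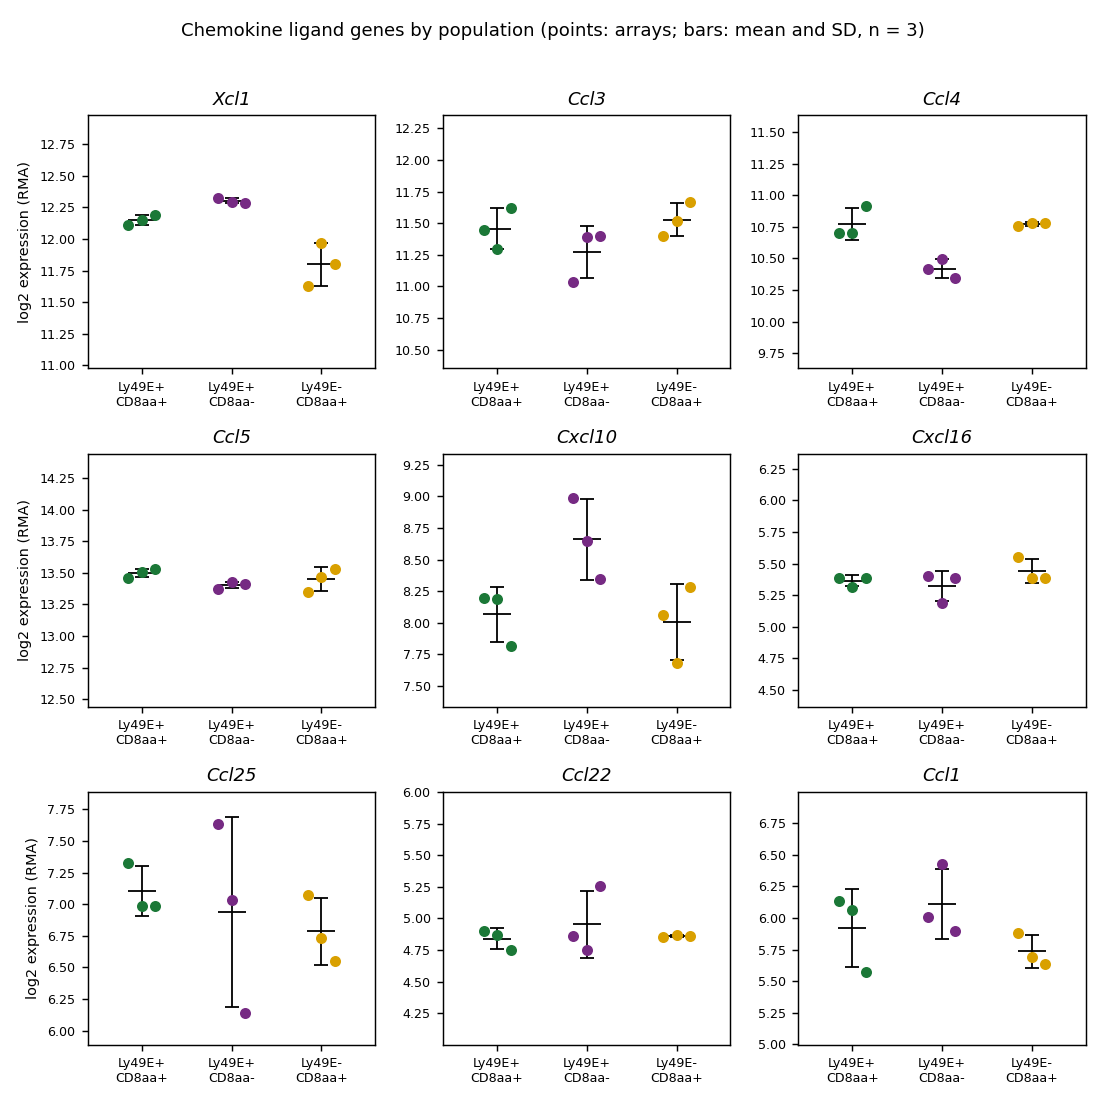
Log2 expression (vertical axis, each panel spanning 2 log2 units at its own level) of the 9 chemokine ligand genes in the 3 populations; points are arrays and bars are the mean and SD (n = 3). Xcl1 arrays fall in 3 separate bands, Ccl4 is lowest and Cxcl10 highest in Ly49E+CD8aa-, and Ccl5 stays between 13.35 and 13.53 on every array.

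Xcl1 was the 1 member that passed the moderated F test over the 3 populations (limma adjusted p = 0.0366, n = 3 per population), where 2.03% of all genes passed. Values were 12.32, 12.29 and 12.29 on the Ly49E+CD8aa- arrays, 12.11, 12.15 and 12.19 on the Ly49E+CD8aa+ arrays and 11.63, 11.97 and 11.80 on the Ly49E-CD8aa+ arrays. The populations did not overlap, with Ly49E+CD8aa- highest and Ly49E-CD8aa+ lowest and most spread (SD 0.17). Between the ends of that order, Ly49E+CD8aa- was higher than Ly49E-CD8aa+ by 0.50 (SE 0.0853, 95% interval 0.31 to 0.69), a 1.42-fold difference that passed (limma adjusted p = 0.0166). In this comparison 2.15% of all genes were called. The call was lost without any of the Ly49E+CD8aa- replicates 1, 2 and 3 (adjusted p = 0.0673, 0.0598 and 0.0611), without Ly49E-CD8aa+ replicate 3 (0.0623) and with the 6 arrays of the comparison alone (0.0766), and held in 12 of 17 alternatives, with adjusted p from 0.00489 to 0.0766. The F call for Xcl1 was lost with the replicate number as a block, and with 1 array left out it passed only without Ly49E-CD8aa+ replicate 2.

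The neighbours in the order of Xcl1 were not separated by the test over all genes. Ly49E+CD8aa+ was above Ly49E-CD8aa+ by 0.35 (95% interval 0.16 to 0.54, unadjusted p = 0.00258, limma adjusted p = 0.627), and Ly49E+CD8aa+ minus Ly49E+CD8aa- was -0.15 (95% interval -0.34 to 0.04, adjusted p = 0.666). In bulk RNA, fewer cells that make a transcript and less of it per cell cannot be told apart. Markers of dendritic cells, macrophages and mast cells also differed between these populations. The summed level of the 12 macrophage and monocyte markers ran from 9.32 to 9.80 in Ly49E-CD8aa+, where Xcl1 was lowest, against 8.69 to 8.76 in Ly49E+CD8aa- and 8.97 to 9.01 in Ly49E+CD8aa+, with 2 called lower in Ly49E+CD8aa- cells than Ly49E-CD8aa+ cells. Of dendritic markers, the summed level of all 12 ran from 11.26 to 11.68 in Ly49E-CD8aa+, from 11.13 to 11.30 in Ly49E+CD8aa- and from 10.98 to 11.09 in Ly49E+CD8aa+, with 5 of the 12 below the array medians, and in the comparison of Ly49E+CD8aa- with Ly49E-CD8aa+ 3 were called lower and 1 higher. Mast cell markers, with 6 of 7 below the medians, summed to between 9.63 and 9.80 in Ly49E+CD8aa- and between 8.66 and 8.86 elsewhere, with 1 of 7 called. That gene, named after its values were seen, was Kit, a receptor gene that innate lymphoid cells also express. Of all genes 2.15% were called between Ly49E+CD8aa- and Ly49E-CD8aa+. The part of macrophages, dendritic cells and mast cells in the Xcl1, Ccl1 and Cxcl10 differences was not tested.

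The genes whose values followed Xcl1 most closely over the 9 arrays were S100a10 (Pearson r = 0.949), Cd160 (0.942) and Myl12b (0.939), a description over arrays that share populations. Cd160, which encodes a receptor of NK cells and intraepithelial lymphocytes, had a mean of 10.64 for Ly49E+CD8aa-, 10.35 for Ly49E+CD8aa+ and 9.78 for Ly49E-CD8aa+. S100a10, which encodes the partner of annexin A2, had 11.97, 11.86 and 11.67 in the same order, and Myl12b, a myosin light chain gene, had 12.08, 12.08 and 11.97.

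Ccl4, which encodes MIP-1 beta, had its lowest arrays in Ly49E+CD8aa-, where Xcl1 was highest, but did not pass. Its values were 10.41, 10.50 and 10.35 on the Ly49E+CD8aa- arrays, 10.70, 10.70 and 10.91 on the Ly49E+CD8aa+ arrays and 10.76, 10.78 and 10.78 on the Ly49E-CD8aa+ arrays. Both CD8aa+ populations lay above every Ly49E+CD8aa- array and overlapped each other. Ly49E+CD8aa+ minus Ly49E+CD8aa- was 0.35 (SE 0.077, 95% interval 0.18 to 0.53, unadjusted p = 0.00131, limma adjusted p = 0.0669). Ly49E+CD8aa- minus Ly49E-CD8aa+ was -0.35 (95% interval -0.53 to -0.18, unadjusted p = 0.00128, adjusted p = 0.0569). The F test gave an adjusted p of 0.0718. The first passed in 1 of 17 alternatives, with an intensity trend (adjusted p = 0.0377, range 0.0377 to 0.207), and the other in 4 of 17 (range 0.0309 to 0.185). The 12 innate lymphocyte markers summed to between 15.80 and 15.84 in Ly49E+CD8aa-, where Ccl4 was lowest, and to between 15.94 and 16.001 in the CD8aa+ populations. The list went both ways, with 1 called higher and 3 lower for Ly49E+CD8aa- minus Ly49E-CD8aa+, where 2.15% of all genes were called. For Ly49E+CD8aa+ minus Ly49E+CD8aa- 3 were called higher and 1 lower, where 1.7% of all genes were called. The part of these markers in the Ccl4 values was not tested. The difference between the CD8aa+ populations in Ccl4 was -0.0013 with a 95% interval of -0.17 to 0.17.

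Ccl3, which encodes MIP-1 alpha, had its lowest mean in the same population as Ccl4, with values of 11.04, 11.39 and 11.40 in Ly49E+CD8aa-. They were 11.44, 11.30 and 11.62 on the Ly49E+CD8aa+ arrays and 11.40, 11.52 and 11.67 on the Ly49E-CD8aa+ arrays. Ly49E+CD8aa- lay below Ly49E-CD8aa+ without overlap but by a gap of only 0.0041 between the nearest arrays, and it overlapped Ly49E+CD8aa+. Ly49E+CD8aa- minus Ly49E-CD8aa+ was -0.25 (95% interval -0.53 to 0.03, adjusted p = 0.539), and Ly49E+CD8aa+ minus Ly49E+CD8aa- was 0.18 (95% interval -0.10 to 0.46, adjusted p = 0.739). Over the 9 arrays Ccl3 and Ccl4, neighbouring genes in the RefSeq annotation of GRCm38.p6, had a Pearson r of 0.684, and of 0.47 after each population's mean was taken off.

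Ccl5, the RANTES gene, varied little. Its values were 13.46, 13.50 and 13.53 on the Ly49E+CD8aa+ arrays, 13.38, 13.43 and 13.41 on the Ly49E+CD8aa- arrays and 13.35, 13.47 and 13.53 on the Ly49E-CD8aa+ arrays. The 9 arrays spanned 0.18, near the top of the scale, which reached 13.84, and Ly49E+CD8aa+ lay above Ly49E+CD8aa- by a gap of 0.04 between the nearest arrays. Intervals of the 3 differences reached from -0.20 at the lowest to 0.24 at the highest, with adjusted p from 0.741 to 1.

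Cxcl10 showed the largest differences between means among the 9 genes and the arrays spread widely. The Ly49E+CD8aa- arrays read 8.99, 8.65 and 8.34, against 8.20, 8.19 and 7.82 on the Ly49E+CD8aa+ arrays and 8.06, 7.69 and 8.28 on the Ly49E-CD8aa+ arrays. Every Ly49E+CD8aa- array was above all 6 others, by 0.06 at the closest, and the CD8aa+ populations overlapped. Ly49E+CD8aa- minus Ly49E-CD8aa+ was 0.65 (SE 0.196, 95% interval 0.21 to 1.09, unadjusted p = 0.00878), a 1.57-fold difference that did not pass over all genes (limma adjusted p = 0.207, from 0.133 to 0.499 over 17 alternatives). Ly49E+CD8aa+ minus Ly49E+CD8aa- was -0.59 (95% interval -1.03 to -0.15, adjusted p = 0.306). The difference between the CD8aa+ populations was 0.06 with a 95% interval of -0.39 to 0.50.

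The other ligands of Cxcr3 did not pass in any comparison. Cxcl9 had a mean of 4.76 for Ly49E+CD8aa+, 5.13 for Ly49E+CD8aa- and 5.04 for Ly49E-CD8aa+, and Cxcl11 had 5.04, 4.995 and 5.04, all below the array medians. A list of interferon response genes and a receptor chain, which includes Cxcl9 and Cxcl11, had 14 measured genes. Of these, 1 was called higher in Ly49E+CD8aa- cells than Ly49E-CD8aa+ cells, where 2.15% of all genes were called. The median difference of the list was 0.21 against -0.02 over all genes tested. The called gene was Ifngr1, the chain of the interferon gamma receptor on the list, at 0.81 (SE 0.12, adjusted p = 0.00822, and 0.0628 with the 6 arrays alone). The response genes themselves did not pass, with Ifit3 nearest the threshold (0.76, adjusted p = 0.0648). Ifngr1 was also lower in Ly49E+CD8aa+ cells than Ly49E+CD8aa- cells by a difference of -0.60 (adjusted p = 0.0441), a call lost under several alternatives, among them with the 6 arrays alone (adjusted p = 0.101), with arrays centred on their medians (0.0549) and without any of 7 arrays, the 3 of Ly49E+CD8aa+, replicates 1 and 2 of Ly49E+CD8aa- and replicates 2 and 3 of Ly49E-CD8aa+ (adjusted p from 0.0558 to 0.160).

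**Figure D2:**
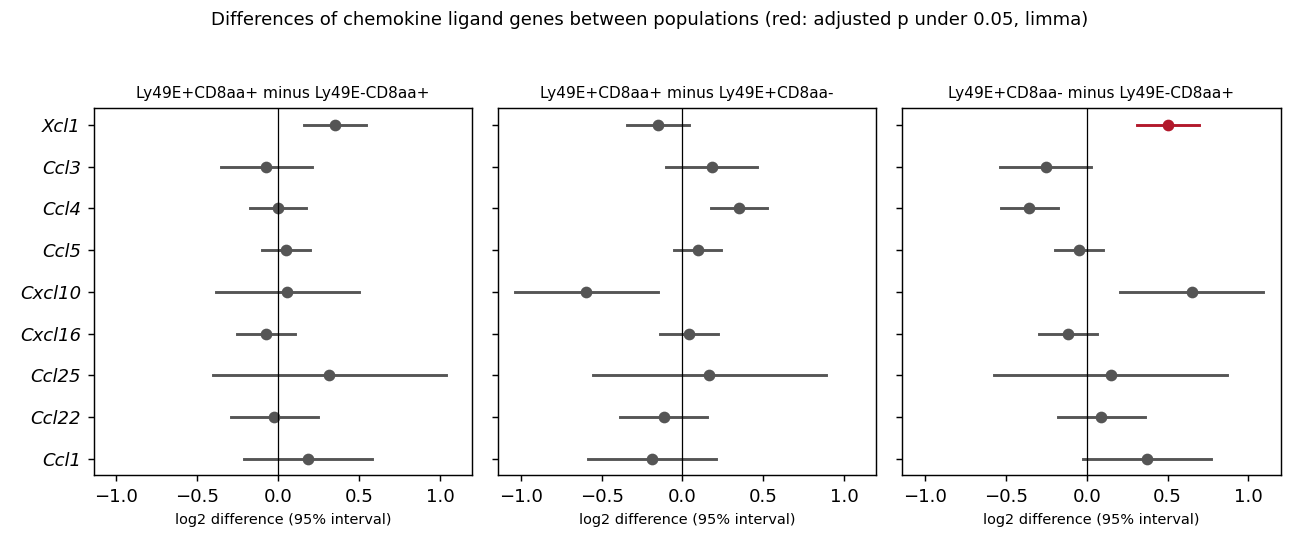
Log2 differences (horizontal axis) of the 9 genes in the 3 comparisons, with 95% intervals from the moderated fit over 9 arrays; red marks an adjusted p under 0.05. Xcl1 at 0.50 between Ly49E+CD8aa- and Ly49E-CD8aa+ is the only red point, and the Ccl25 intervals are the widest.

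Ccl25 spanned 1.49 over the 9 arrays, all of it within Ly49E+CD8aa-. The brighter row read 7.33, 6.99 and 6.99 on the Ly49E+CD8aa+ arrays, 7.63, 7.03 and 6.14 on the Ly49E+CD8aa- arrays and 7.08, 6.73 and 6.55 on the Ly49E-CD8aa+ arrays. Replicate 1 was the highest array of each population, and the populations overlapped. Differences ran from 0.15 to 0.32 with 95% intervals from -0.57 at the lowest to 1.04 at the highest, and adjusted p from 0.917 to 1. The enterocyte markers moved with it. Over the 9 arrays the Pearson r between Ccl25 and their summed level was 0.83 (Spearman rho 0.912), 0.92 over 7 arrays without the 2 farthest from the median marker level, and 0.821 after population means were taken off. The replicate 1 arrays of the 3 populations stood at 13.43, 13.39 and 13.47 in the order of the Ccl25 values above, and on the other 6 arrays between 12.61 and 12.99. The pattern was not particular to enterocyte markers. The summed level of 8 secretory epithelium markers was 11.06, 11.39 and 10.83 on the replicate 1 arrays in the same order. On the other 6 arrays it lay between 9.73 and 10.36. This is a description of arrays that share populations and possibly mice, and the part of epithelial RNA in the Ccl25 values was not tested.

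The second row of Ccl25 did not follow the first. It read 5.79, 7.05 and 6.07 on the Ly49E+CD8aa+ arrays, 6.79, 5.74 and 6.31 on the Ly49E+CD8aa- arrays and 6.34, 6.45 and 5.87 on the Ly49E-CD8aa+ arrays. Its Pearson r was 0.158 with the brighter row and 0.065 with the enterocyte markers. The platform annotation pairs the brighter row with the messenger RNA and a non-coding transcript of the gene, and the second row with that non-coding transcript and a cDNA clone.

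**Figure D3:**
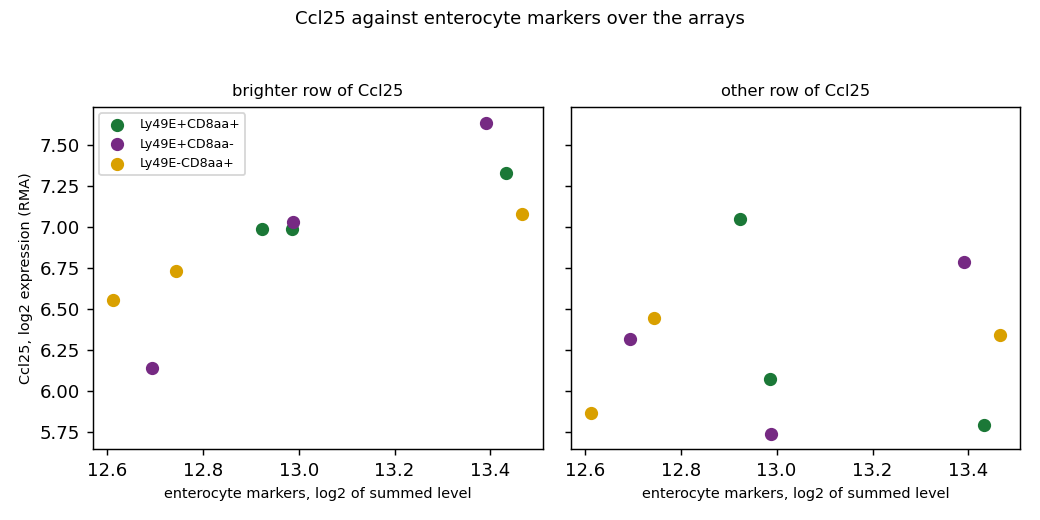
Log2 expression of the 2 rows of Ccl25 (vertical axis) against the log2 of the summed level of 12 enterocyte markers (horizontal axis), 1 point per array and coloured by population. The brighter row, which spans 6.14 to 7.63, tends to be higher where the markers are higher, though not in strict order. The other row shows no such tendency.

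Cxcl16, the Cxcr6 ligand, read 5.39, 5.32 and 5.39 on the Ly49E+CD8aa+ arrays, 5.40, 5.19 and 5.39 on the Ly49E+CD8aa- arrays and 5.55, 5.39 and 5.39 on the Ly49E-CD8aa+ arrays. The same value stood on 5 of the 9 arrays (to within 1e-06), and 7.76% of all genes likewise had 1 value on at least 5 arrays. Differences between populations ran from -0.12 to 0.04, with 95% intervals within -0.30 to 0.22. Adam10, which encodes a protease that releases Cxcl16 from the membrane, had means from 8.80 to 8.88. Of the list of chemokine-cleaving proteases and the granule carrier Srgn, 0 of 5 genes were called by limma in any comparison. Of all genes 0.13% to 2.15% were called. At an unadjusted p under 0.05 there were 0, 0 and 1 for Ly49E+CD8aa+ minus Ly49E-CD8aa+, Ly49E+CD8aa+ minus Ly49E+CD8aa- and Ly49E+CD8aa- minus Ly49E-CD8aa+. Beside these stood 4.18%, 9.43% and 10.4% of all genes. The 1 gene was Adam17, at 0.22 for Ly49E+CD8aa- minus Ly49E-CD8aa+ (limma unadjusted p = 0.0349, adjusted p = 0.422).

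Ccl22, the Ccr4 ligand, read 4.90, 4.87 and 4.75 on the Ly49E+CD8aa+ arrays, 4.86, 4.75 and 5.25 on the Ly49E+CD8aa- arrays and 4.86, 4.87 and 4.86 on the Ly49E-CD8aa+ arrays. Apart from Ly49E+CD8aa- replicate 3, all arrays lay between 4.75 and 4.90. The differences had 95% intervals within -0.38 to 0.36.

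Ccl1, the Ccr8 ligand, read 6.14, 6.06 and 5.57 on the Ly49E+CD8aa+ arrays, 6.01, 6.42 and 5.90 on the Ly49E+CD8aa- arrays and 5.88, 5.69 and 5.63 on the Ly49E-CD8aa+ arrays. Ly49E+CD8aa- lay above Ly49E-CD8aa+ with a gap of 0.01 between the nearest arrays. That difference was 0.37 (95% interval -0.02 to 0.77, adjusted p = 0.513).

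Counted together, 5 of the 9 genes had arrays that did not overlap between Ly49E+CD8aa- and Ly49E-CD8aa+ (3 higher and 2 lower), where 5.29% of all genes were higher and 7.45% lower in that way and 12.7% either way. At an unadjusted p under 0.05 there were 3 of 9, against 10.4% of all genes, and 1 passed after adjustment. Between Ly49E+CD8aa+ and Ly49E+CD8aa- 4 of 9 did not overlap (2 higher and 2 lower, against 7.41% and 5.52% of all genes and 12.9% either way). There 0 passed by limma, where 1.7% of all genes did, with 2 of 9 at an unadjusted p under 0.05, against 9.43% of all genes. Between Ly49E+CD8aa+ and Ly49E-CD8aa+ 1 of 9, Xcl1, did not overlap and was higher, where 2.88% of all genes were higher and 3.38% lower in that way and 6.25% either way. By limma 0 passed, where 0.13% of all genes did, with 1 of 9, again Xcl1, at an unadjusted p under 0.05, against 4.18% of all genes. The median differences of the 9 genes were 0.09, 0.04 and 0.05 in these comparisons, beside -0.02, 0.03 and 0.00 over all genes. The comparisons share arrays, so their values are set side by side only.

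The remaining chemokine ligand genes gave no calls. Of 31 listed, 27 were measured, and 0 were called by limma in any of the comparisons, where 0.13% to 2.15% of all genes were called. At an unadjusted p under 0.05 there were 2 in each comparison of Ly49E+CD8aa+ with another population and 1 between Ly49E+CD8aa- and Ly49E-CD8aa+. Of all genes 4.18% to 10.4% were under that p in the comparisons. Arrays did not overlap for 5 of 27 for Ly49E+CD8aa+ minus Ly49E-CD8aa+ (4 higher and 1 lower), against 6.25% of all genes. For Ly49E+CD8aa+ minus Ly49E+CD8aa- it was 5 of 27 (all higher), against 12.9% of all genes. For Ly49E+CD8aa- minus Ly49E-CD8aa+ it was 3 of 27 (2 higher and 1 lower), against 12.7%. Differences of the 27 genes lay between -0.37 and 0.26. Ccl20, an epithelial attractant of Ccr6+ cells, had a mean of 5.80 for Ly49E+CD8aa+, 5.75 for Ly49E+CD8aa- and 5.77 for Ly49E-CD8aa+. Ccl17, which shares Ccr4 with Ccl22, had 5.19, 5.21 and 5.10, and the stromal chemokine Cxcl12 had 4.50, 4.48 and 4.48 in the same order.

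Among receptors for the 9 ligands, Ccr9 and Cxcr3 differed between populations. Ccr9, the receptor of Ccl25, read 10.05, 9.64 and 9.88 on the Ly49E+CD8aa- arrays, 8.60, 8.24 and 7.96 on the Ly49E+CD8aa+ arrays and 8.18, 7.55 and 7.84 on the Ly49E-CD8aa+ arrays. All Ly49E+CD8aa- arrays were above the others, by 2.00 on average over Ly49E-CD8aa+ (SE 0.197, adjusted p = 0.000607). Ly49E+CD8aa+ minus Ly49E+CD8aa- was -1.59 for Ccr9 (adjusted p = 0.00323).

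Cxcr3, the receptor of Cxcl10, read 10.26, 10.24 and 9.97 on the Ly49E+CD8aa- arrays, 9.53, 9.30 and 9.17 on the Ly49E+CD8aa+ arrays and 9.37, 9.37 and 9.66 on the Ly49E-CD8aa+ arrays. It was higher in Ly49E+CD8aa- cells than Ly49E-CD8aa+ cells by 0.69 (SE 0.124, adjusted p = 0.0224), a call lost with the 6 arrays alone (0.0606) and without Ly49E+CD8aa- replicate 1 (0.0931), Ly49E+CD8aa- replicate 2 (0.0937), Ly49E-CD8aa+ replicate 1 (0.0942) or Ly49E-CD8aa+ replicate 2 (0.0963). Ly49E+CD8aa+ minus Ly49E+CD8aa- was -0.82 for Cxcr3 (adjusted p = 0.0097, and 0.0507 without Ly49E+CD8aa+ replicate 2).

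Of 10 measured receptors of 11 listed, these were the 2 called, both higher in Ly49E+CD8aa- than in either CD8aa+ population. Of all genes 2.15% were called against Ly49E-CD8aa+ and 1.7% against Ly49E+CD8aa+. Between the CD8aa+ populations 0 receptors were called, where 0.13% of all genes were, with 1 at an unadjusted p under 0.05 by limma, against 4.18% of all genes. Cxcr6 and Xcr1, named after their values were seen, did not pass. Cxcr6 had a mean of 11.82 for Ly49E+CD8aa-, 11.55 for Ly49E+CD8aa+ and 11.41 for Ly49E-CD8aa+, and the difference of 0.40 between the first and the last did not pass (adjusted p = 0.0687). Xcr1, the receptor of Xcl1, had means of 4.14, 4.03 and 4.39 in the same order, below the array medians.

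**Figure D4:**
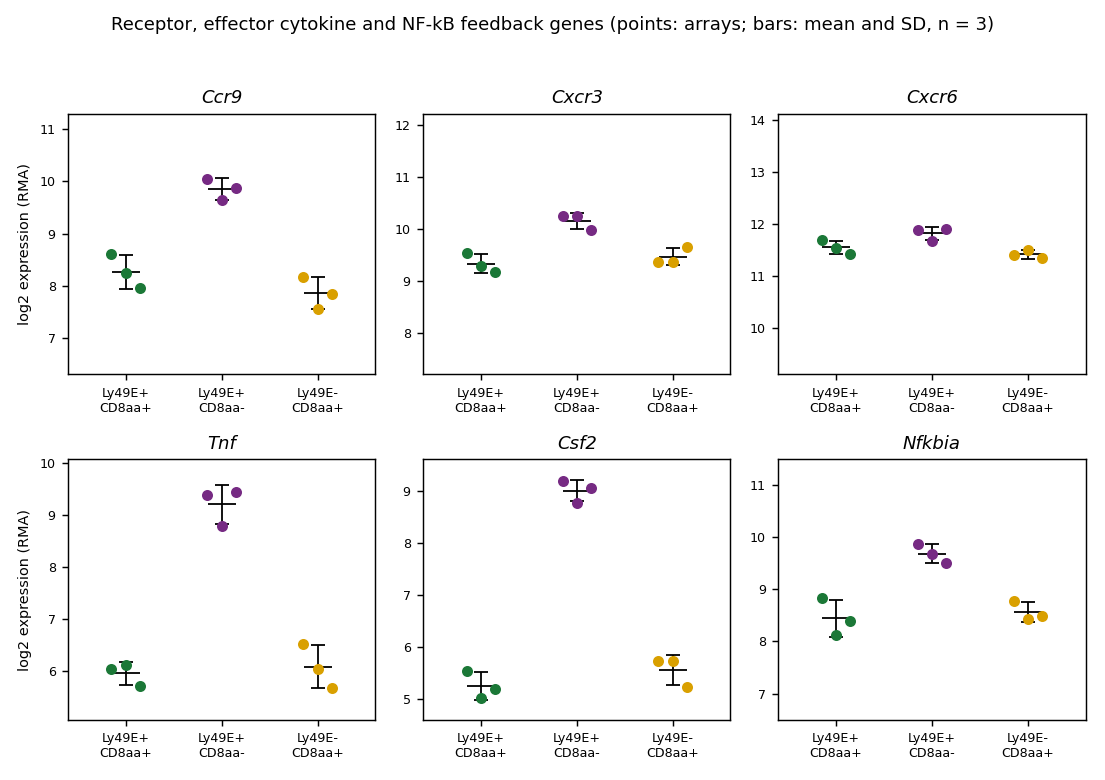
Log2 expression (vertical axis, each panel spanning 5 log2 units at its own level) of the chemokine receptor genes Ccr9, Cxcr3 and Cxcr6, the cytokine genes Tnf and Csf2 and the NF-kB inhibitor gene Nfkbia; points are arrays and bars are the mean and SD (n = 3). Tnf and Csf2 in Ly49E+CD8aa- lie at 8.78 or above, against 6.52 or below in the other populations.

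Effector genes that activated NK and CD8 T cells make beside Ccl3, Ccl4, Ccl5 and Xcl1 were called more often than the 9 ligands, a difference in counts that was not itself tested. Both lists were chosen with earlier results of these data known, so the counts only describe them. Out of 10 on the list 4 were called higher and 1 lower for Ly49E+CD8aa- minus Ly49E-CD8aa+, where 2.15% of all genes were called. The median difference of the list was 0.86 against -0.02 over all genes. The count was the same against Ly49E+CD8aa+, where 1.7% of all genes were called, with a median of -0.78 for Ly49E+CD8aa+ minus Ly49E+CD8aa-. Csf2, which encodes GM-CSF, differed by 3.44 and -3.75 in these comparisons, Tnf by 3.12 and -3.25, Ltb by 2.08 and -1.87 and Tnfsf14 by 1.35 and -1.51 (adjusted p from 3.24e-06 to 0.00339). The gene of opposite direction, named after its values were seen, was the perforin gene Prf1, at -0.76 and 0.58 (adjusted p = 0.00393 and 0.0197). The latter call for Prf1 did not hold when Ly49E+CD8aa+ replicate 1 (adjusted p = 0.0856) or 3 (0.0896) was left out, nor without Ly49E+CD8aa- replicate 1 (0.0834) or 3 (0.0703).

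NF-kB and NFAT factors drive chemokine transcription after receptor stimulation. A list of these factors with feedback and immediate early genes had 20 measured genes. Of these, 3 were called higher in Ly49E+CD8aa- cells than Ly49E-CD8aa+ cells and 0 lower, where 2.15% of all genes were called. The median difference of the list was 0.20. The called genes were Nr4a1, an immediate early receptor gene, at 2.08 (adjusted p = 0.000193), Nfkbia, which encodes the inhibitor of NF-kB, at 1.12 (0.012) and Nfkb2 at 0.42 (0.0384). Nfkb2 is itself a factor gene, and the other measured ones, Rel, Rela, Relb, Nfatc1, Nfatc2 and Nfatc3, were not called in any comparison. Nfatc2 lay just above the threshold, at 0.35 for Ly49E+CD8aa- minus Ly49E-CD8aa+ (limma adjusted p = 0.0501). In that comparison Relb was at 0.29 (adjusted p = 0.373), Nfatc3 at 0.15, Nfatc1 at 0.05, Rela at 0.01 and Rel at -0.10. Nr4a1 and Nfkbia also differed between Ly49E+CD8aa+ and Ly49E+CD8aa-, at -2.29 and -1.24 (adjusted p = 0.000109 and 0.00742). The Nfkb2 call was lost under several alternatives, among them with an intensity trend (adjusted p = 0.0632), with the 6 arrays alone (0.0874) and without any of 7 arrays, all but Ly49E+CD8aa+ replicate 1 and Ly49E+CD8aa- replicate 3, with adjusted p from 0.0619 to 0.143. Nfkbia against Ly49E-CD8aa+ was lost without Ly49E+CD8aa- replicate 1 (0.0555), Ly49E-CD8aa+ replicate 2 (0.0587) or Ly49E-CD8aa+ replicate 3 (0.0574). These lists share Ly49E+CD8aa- arrays with the Xcl1 and Cxcl10 comparisons, and a link between them was not tested.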

How the data were processed

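Total RNA from sorted cells was amplified and hybridised to single-channel Affymetrix Mouse Gene ST arrays, 9 in all. The authors deposited RMA values, per the submitters' processing notes. That the deposited values are log2 was inferred from their range, 1.84 to 13.84. The authors' RMA version, genome build and annotation are not given in the sources used.

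Of 35556 rows, 21789 had 1 symbol in the platform annotation, 1621 had several and 12146 were not listed, and 21698 were matched to current gene records by identifier. The row with the highest mean stood for each of 19938 genes. Limma 3.58.1 in R 4.3.3 was fitted to all 9 arrays with a mean per population (residual degrees of freedom 6, prior 3.08). Tests were 2-sided with Benjamini-Hochberg adjustment over 19938 genes and a threshold of 0.05. The script was tested on simulated data. The number of arrays limits the precision. Same-numbered arrays were not treated as pairs.

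The members and lists were chosen with earlier results of these data known. Beside the 9 members, the named genes were the sort markers, called receptors and other ligands, 5 fixed ligands, and up to 4 called genes per pathway list with the largest difference. Adam10, Adam17, Srgn, Ifit3, Rel, Rela, Relb, Nfatc1, Nfatc2 and Nfatc3 were named outside this rule, as were Kit, Prf1, Cxcr6 and Xcr1. Genes like a member were the 3 with the highest Pearson r, for members that passed the F test. Alternatives were the 6 arrays of a comparison, a replicate block, a filter on dim rows, quantile normalization, median centring, an intensity trend, array weights, the mean of a gene's rows, and leaving out each array. Listed genes without a row of 1 symbol were not analysed here.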

Additional observations from a re-analysis of the deposited data

How the results depend on the processing

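The count of genes called between Ly49E+CD8aa+ and Ly49E-CD8aa+ was 26, and was 17 with a replicate block, 15 with the filter on dim rows, 0 with the 6 arrays alone and from 5 to 32 with each array left out. Between Ly49E+CD8aa- and Ly49E-CD8aa+ the count was 429, and 263 with the 6 arrays alone. Of the 9 ligands 1 was called there, against 2 with quantile normalization, an intensity trend or array weights, 0 with the 6 arrays alone and from 0 to 2 with each array left out. Between Ly49E+CD8aa+ and Ly49E+CD8aa- 1 was called with an intensity trend. The F test called 2 with an intensity trend, 0 with a replicate block and from 0 to 1 with each array left out. The causes were not tested. The replicate block also ended the call of Xcl1 in the F test, of Ifngr1 for Ly49E+CD8aa+ minus Ly49E+CD8aa- (-0.60, adjusted p = 0.0625) and of Nfkb2 for Ly49E+CD8aa- minus Ly49E-CD8aa+ (0.42, adjusted p = 0.0503). The labels do not say whether same-numbered arrays share mice. Deviations of 4 of 9 such pairs correlated over 0.1 (from -0.063 to 0.222). The replicate 1 pairs were among them, at 0.172, 0.222 and 0.127, while replicate 1 arrays and arrays of other numbers correlated from -0.169 to -0.022. The own number was the best match of 3 arrays in 10 of 18 cases. These values do not settle whether same-numbered arrays belong together. The main fit did not treat them as pairs, and the replicate block is the alternative that allows for it. Of 450 values for the ligands under alternatives, 424 kept direction and side of the threshold, 16 changed sign, 5 newly passed and 5 no longer passed. For Ly49E+CD8aa+ minus Ly49E-CD8aa+, Ccl4 was 0.0166 with arrays centred on their medians, and leaving out each array gave -0.157 to 0.0048 for Ccl3, -0.0729 to 0.0348 for Ccl4, -0.0034 to 0.087 for Ccl5, -0.0554 to 0.0227 for Ccl22 and -0.105 to 0.192 for Cxcl10. For Ly49E+CD8aa+ minus Ly49E+CD8aa- the ranges were -0.218 to 0.0358 for Ccl22, -0.231 to 0.516 for Ccl25 and -0.0294 to 0.0754 for Cxcl16. For Ly49E+CD8aa- minus Ly49E-CD8aa+ they were -0.0598 to 0.194 for Ccl22 and -0.2 to 0.546 for Ccl25. The filter removed Ccl1, Ccl22 and Cxcl16, which have no value under it. Ccl22 and Cxcl16 lay below the array medians, which limits what their differences can show.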
